A study of Mus musculus with 4 samples.

Results

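The miRNA miR-149 has 2 mature arms, mmu-miR-149-5p and mmu-miR-149-3p (called miR-149-5p and miR-149-3p), which are cut from one hairpin encoded inside the gene Gpc1. Both arms were followed through the AGO2 chimeric reads of mouse mesangial cells (MMC). The members were the reads whose listed miRNA was either arm, and they were 2 of the 1643 mature miRNAs listed in the series. miR-149-3p was listed with 1037 chimeric reads of 775 distinct reads and miR-149-5p with 12 reads of 10. A distinct read is a sequence counted 1 time in each library that holds it, so a sequence found in 2 libraries counts as 2. Over the libraries there were 711 different sequences of miR-149-3p, 47 of them in more than 1 library, and 9 of miR-149-5p, 1 of them in more than 1 library. The arms are named as the files list them. Of the reads listed as miR-149-3p, 0 held an exact stretch of 16 nt of that arm, as described with the sequences. The pair was chosen by the high chimeric read count of miR-149-3p and by its many ribosomal RNA targets, so its rank among miRNAs and its ribosomal RNA share against other miRNAs are given as a description, with no test.

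The reads came from AGO2-CLASH, in which RNAs held together by AGO2 are ligated and sequenced as one hybrid read with a miRNA part and a target part. The MMC were primary glomerular mesangial cells of wild type (WT) or miR-379KO (KO) mice of the strain C57BL/6J (Jackson lab), grown without treatment and immunoprecipitated with the Ago2 antibody from Wako, Japan. There were 2 libraries of each genotype, named A and B. The study's text calls the AGO2-IP samples A and B of these MMC independent, and neither it nor the labels say whether they were separate cultures or animals, so the spread between them, which the p-values measure, may be technical. The age of the mice is not given in the labels, and the KO lacks miR-379 through a germline CRISPR-Cas9 nickase deletion.

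The libraries held 6326 to 16324 chimeric reads, with WT A the largest. For miR-379, the miRNA deleted in the KO, the 5p arm had 2 and 1 reads in WT A and B and 0 in each KO library. A count of 0 allows up to 3 reads in either KO library. Its 3p arm had 1 read in WT A and 0 in the other libraries. Of 20 symbols of mesangial and fibrosis genes (Ctgf and Ccn2 name the same gene), 16 were listed as a target of some miRNA. Itga8 and Thy1, which mark mesangial cells, were not among them. A chimera library samples ligated pairs and not transcript levels, and fewer ligations and less RNA cannot be told apart in it.

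A miRNA hairpin yields a 5p and a 3p arm, and the arm kept by AGO2 guides it to RNAs that pair with it, above all through the seed near its 5′ end. miR-149 lies in an intron of Gpc1, the gene of the cell surface proteoglycan glypican-1. The 18S ribosomal RNA, named often below, is the RNA of the small ribosomal subunit and one of the most abundant RNAs of any cell, and U3 is the small nucleolar RNA that helps to cut it out of its precursor.

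The hairpin lies on GRCm38 chromosome 1 at chr1:92850378-92850443, plus strand, in the intron between exons 1 and 2 of Gpc1. The mature sequences of RefSeq (GRCm38.p6) are shown because every alignment below is read against them, with the seed (bases 2 to 8) in capitals.
miR-149-5p: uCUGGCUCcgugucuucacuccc
miR-149-3p: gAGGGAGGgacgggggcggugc
miR-149-3p is 22 nt long and 15 of its bases are G. Of the 1679 mature mouse miRNAs in the table, only 3 have a higher share of G. Its seed is shared by miR-1943-5p, miR-6967-5p and miR-7016-5p, whereas no other entry has the seed of miR-149-5p.

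Reads listed as miR-149-3p were frequent in all 4 libraries and reads listed as miR-149-5p were rare in all 4. miR-149-3p had 382 and 259 reads in WT A and B and 212 and 184 in KO A and B. Per 10000 chimeric reads this was 234 and 360.1 in WT A and B and 335 and 284 in KO A and B. The 2 WT libraries were the lowest and the highest, so the genotypes overlapped. The 95% Clopper-Pearson interval was 211 to 258 in WT A and 318 to 406 in WT B. These intervals and the floor of 3 reads cover counting error only, since the reads carry no molecular identifiers. The mean was 297 ± 89.2 per 10000 (SD, n = 2) in WT and 309.6 ± 36.1 (SD, n = 2) in miR-379KO. miR-149-3p ranked 5 among the 1643 listed miRNAs, between miR-2137 with 1066 reads and miR-1195 with 957, where the median miRNA had 6. Its reads were spread over many sequences. Of its distinct reads 603 were counted 1 time and the most frequent one 7 times in a library.

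miR-149-5p had 7 and 2 reads in WT A and B and 2 and 1 in KO A and B. Of these values, the last 3 lie below the floor of 3 reads. The 3p arm made up 98.2% and 99.2% of the miR-149 reads in WT A and B and 99.1% and 99.5% in KO A and B. The share differed by -0.55 percentage points between WT and miR-379KO (exact permutation test, two-sided, p = 0.667), where 2 libraries against 2 cannot give a p below 0.333. It was -0.029 without WT A and -1.06 without WT B.

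Neither arm differed detectably between the genotypes. The log2 ratio of WT over miR-379KO was -0.10 for miR-149-3p (SE 0.70, adjusted p = 0.993) and 0.50 for miR-149-5p (SE 1.42, adjusted p = 0.993) by edgeR's quasi-likelihood test with Benjamini-Hochberg adjustment over 628 miRNAs. Of these 628 miRNAs, 0 passed the threshold of 0.05 (percent called 0), 27 had an unadjusted p under 0.05, and DESeq2 called 0 as well with 11 under 0.05. With an SE of 0.70, a log2 change of miR-149-3p as large as 0.70 was not detectable with these libraries. The lack of a call therefore does not limit the change to a small one. Leaving out 1 library turned that ratio to 0.34 (without WT A) or 0.044 (without KO A), and without WT A 1 miRNA passed the threshold. The ratio of miR-149-5p was 1.11 without KO A and 0.11 without KO B.

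**Figure D1:**
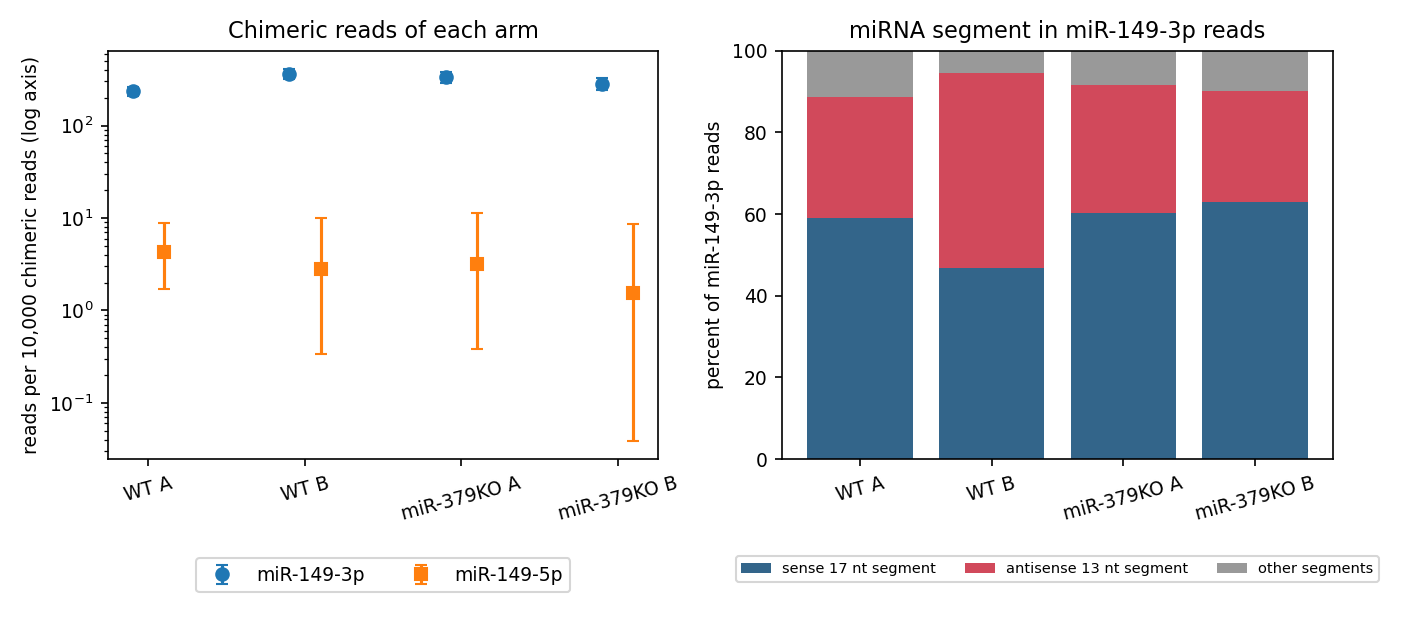
Left, chimeric reads of each arm per 10,000 chimeric reads of the library (log axis), with 95% Clopper-Pearson intervals. miR-149-3p sits between 234 and 360.1 and miR-149-5p below 5 in every library. Right, percent of miR-149-3p reads that carry each miRNA segment, by library. The sense 17 nt segment and the antisense 13 nt segment together fill most of every bar.

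The reads listed as miR-149-3p mostly carried 1 of 2 miRNA segments. A segment is the part of the read that the authors aligned to the miRNA. The 1037 reads held 48 different segments. The sequences of the leading segments are shown because they show what most of these reads hold. Capitals mark the segment. In the first and last line lower case marks the most common base at each flanking position among the reads that reach it, and in the line of the 18S copy it marks the genome's bases.
Sense 17 nt segment with flanks: ttaaGAGGGACGGCCGGGGGCattcg
18S copy on chromosome 17: gattaaGAGGGACGGCCGGGGGCattcg
Antisense 13 nt segment with flanks: gcgtccgtCCGTCCCTCCCTCcctcggtgg

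The sense 17 nt segment had 591 reads of 417 distinct reads. The flanking bases shown were shared by at least 52.6% of the reads at each position, and 32 of the 417 held the whole stretch. The segment was aligned to bases 1 to 17 of miR-149-3p and differed from it at 2 of them, G7C and A10C, with the miRNA's base first and positions counted from 1 at the miRNA's 5′ end. G7C lies in the seed. It made up 59.2% and 46.7% of the miR-149-3p reads in WT A and B and 60.4% and 63.04% in KO A and B. WT B was the lowest and the other libraries lay close together.

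The antisense 13 nt segment had 353 reads of 276 distinct reads. It matched bases 13 to 1 of miR-149-3p without a difference, but as the reverse complement, so these reads hold the opposite strand of the miRNA's first 13 bases. It made up 29.6% and 47.9% in WT A and B and 31.1% and 27.2% in KO A and B. Here WT B was the highest library. The remaining 46 segments had 93 reads in all. Between WT and miR-379KO the share of the sense segment differed by -8.77 percentage points (exact permutation test, two-sided, p = 0.333) and that of the antisense segment by 9.58 (p = 0.667, exact). WT B stood apart from the other libraries in both shares.

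Long exact matches to miR-149-3p were not found among the chimeric reads. Of the 1037 reads, 371 aligned without a difference, and only 3 of these were in sense orientation, the longest over 14 nt. Alignments of 16 nt or more made up 613 reads, of which 0 were without a difference. Among all 29067 distinct chimeric reads of the series, whatever miRNA they were listed with, 1 held a 14 nt stretch of miR-149-3p in sense orientation and 0 held a stretch of 16 nt.

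The sense 17 nt segment was found in 18S ribosomal RNA. It occurs at 2 places in GRCm38, at chr17:39847280-39847296 on the plus strand, which is bases 927 to 943 of the 18S copy annotated as Rn18s-rs5 (chr17:39846354-39848202), and at chr6:3201369-3201385. In all 417 distinct reads the bases next to the segment went on matching the chromosome 17 copy. The exact match was 18 to 76 nt long with a median of 23 nt, so it always exceeded the 17 nt aligned to the miRNA. It began at base 925 of the 18S copy in 221 of the 417 reads (53.0%) and at base 924 in 69. It ended most often at base 944, in 146 reads (35.01%), and at base 945, in 71. The A before the segment was thus shared by nearly all reads, and the reads entered the 18S stretch within a few bases of one another.

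This 18S stretch was not confined to reads listed with miR-149-3p. It was present in 1332 distinct chimeric reads of the series, of which 608 were listed with miR-149-3p and 724 with other miRNAs only. In 872 distinct reads it lay in the target segment.

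The antisense 13 nt segment was not found at the 18S locus. The 13 bases alone occur at 806 places in GRCm38. With the flanks that at least 91.4% of the reads share at each base, the 30 nt stretch occurs at 0 places, and the whole stretch was present in 212 of the 276 distinct reads. The longest exact genome match that held the segment had a median of 24 nt. In 2 distinct reads, both of KO A, the match was longer, at 74 and 98 nt. For the stretch that most of the reads share, no source in the mouse genome was located. The 13 bases were present in 290 distinct reads of the series, of which 277 were listed with miR-149-3p. Reads are listed by an alignment to the miRNA, so this share is no separate result.

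**Figure D2:**
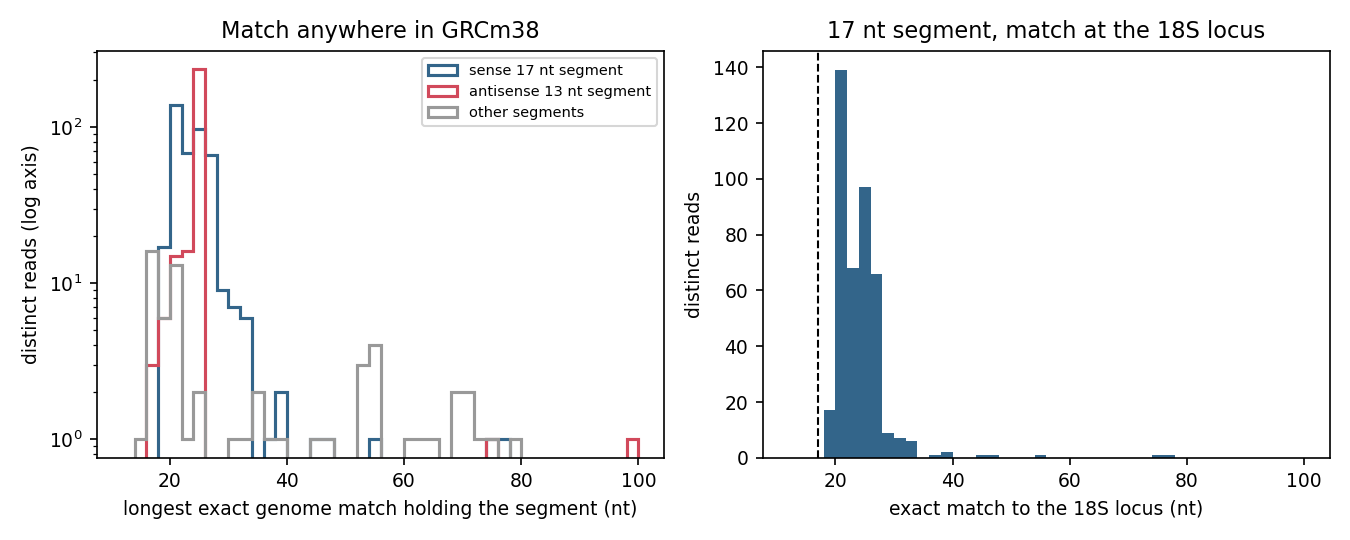
Left, length in nt of the longest exact match to GRCm38 that holds the miRNA segment, as distinct miR-149-3p reads (log axis) by segment. The antisense 13 nt segment gathers at 24 nt. Right, length of the exact match to the 18S locus for the 417 reads with the sense 17 nt segment, where the dashed line marks 17 nt and every read lies above it.

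The target parts of the miR-149-3p reads came mostly from the same 18S locus. A ribosomal RNA gene was listed for 86.1% and 83.01% of the reads in WT A and B and 89.2% and 82.6% in KO A and B. The share differed by -1.31 percentage points between WT and miR-379KO (exact permutation test, two-sided, p = 1), less than the SD of 4.63 between the KO libraries. It was 0.246 without WT B and 1.96 without KO A. For all other miRNAs the share was 28.4% and 35.7% in WT A and B and 35.4% and 36.6% in KO A and B. Since miR-149-3p was chosen for this share, no test of that difference is given.

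Rn18s-rs5, the gene of the 18S copy, was listed with 216 and 169 reads in WT A and B and 128 and 92 in KO A and B. AY036118 overlaps it and was listed for 579 of the same 605 reads, so it is no separate target. Gm26917, which lies directly upstream, had 85, 34, 39 and 33 reads in the same order. Gm42418, which overlaps 18S and the bases downstream, had 28, 12, 22 and 27. All 4 genes lie between chr17:39843013-39848827, a locus that holds a copy of the ribosomal RNA unit. The vM21 annotation puts the listed Rn18s-rs5 transcript and AY036118 on the minus strand, whereas the 18S copy is on the plus strand. All 551 target segments of miR-149-3p that could be placed whole at the locus lay on the plus strand, the strand of 18S RNA, and 0 on the minus strand.

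**Figure D3:**
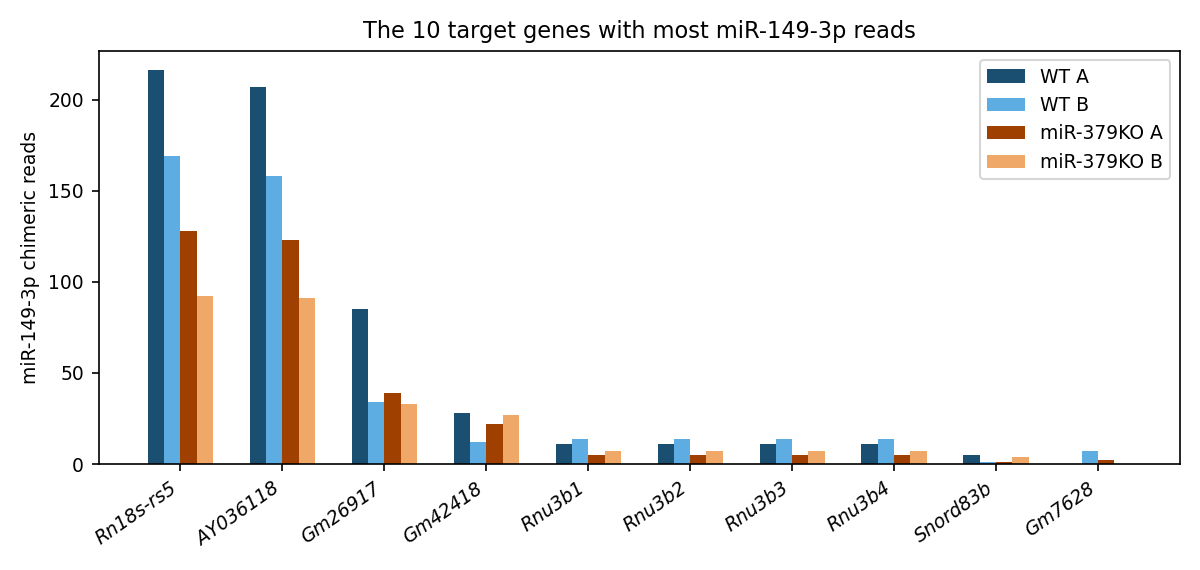
Bars give the miR-149-3p chimeric reads of each library for the 10 target genes with most of them. Rn18s-rs5 and AY036118 rise far above the others and share their reads, and the 4 Rnu3b genes have the same reads.

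Of the 775 target segments, 551 (71.1%) could be placed whole at the locus. The placed targets fell mostly into a few narrow blocks that depended on the segment. With the sense 17 nt segment first and the target after it, 176 of 235 distinct reads had the target within 18S. Its first base lay most often at base 1415 (31 of 188 placed reads), 1411 (18) or 1384 (17). Its last base lay at 1490 (58), 1487 (37) or 1493 (30). In 120 of the 235 reads (51.1%) no base lay between segment and target. With the target before the sense segment, 81 of 182 distinct reads had a target upstream of 18S, most often with its first base at position -504 relative to the 18S start (45 of 111 placed reads), within Gm26917.

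With the antisense 13 nt segment the target came after it in 213 of 276 distinct reads. It began at base 925 of 18S in 56 of 155 placed reads (36.1%), at 921 in 21 and at 918 in 16. Base 925 is also where the exact match of the sense segment most often began. The 17 nt stretch lay within the target segment in 144 of these 213 reads (67.6%). The targets ended most often at base 1012, in 37 reads, and at 1027, in 23. A median of 17 nt separated the segment from the target, and only 4 of the 213 reads had none. In 63 distinct reads the target came before this segment. Of these, 38 targets were placed, and they ranged from position -3252 to 2358. Their leading first base, at -912, held 8 of the 38.

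**Figure D4:**
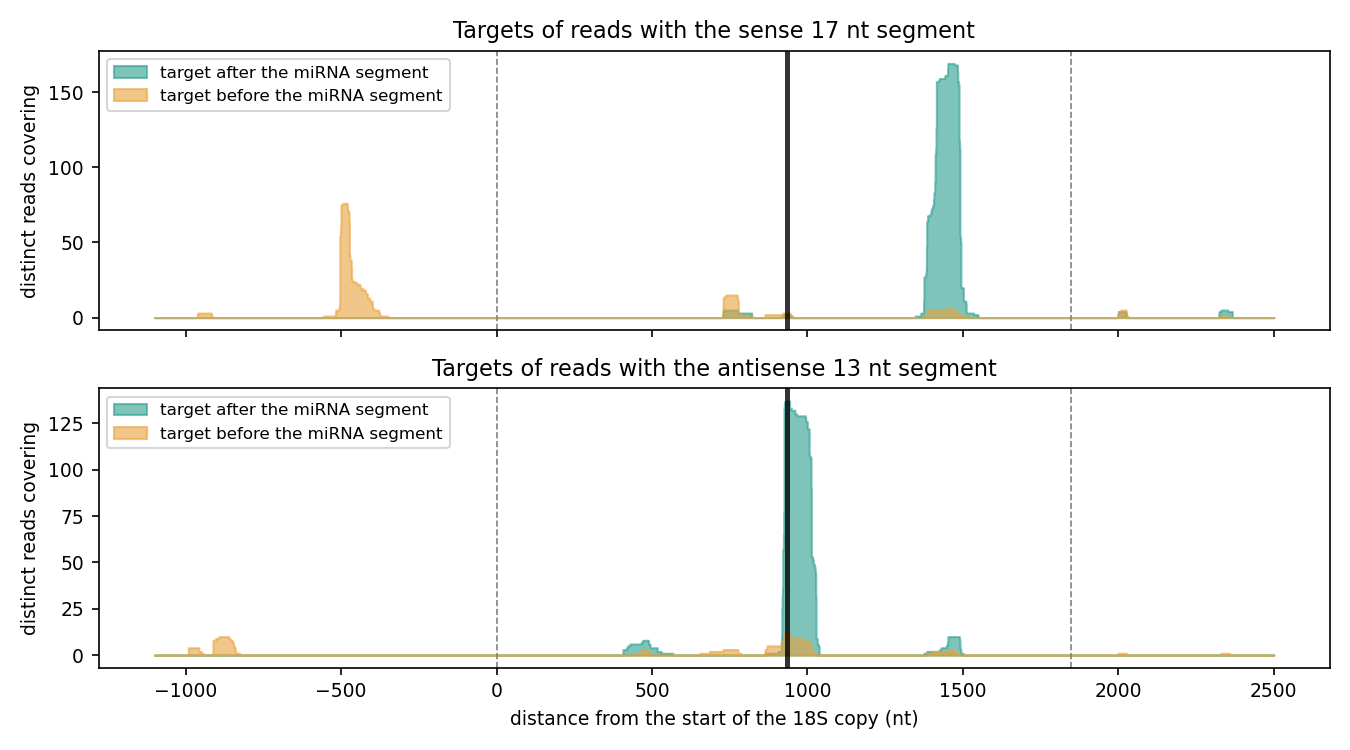
Distinct miR-149-3p reads whose target covers each base, against the distance in nt from the start of the 18S copy, by miRNA segment and by the order of segment and target in the read. The black band marks bases 927 to 943 and the dashed lines the ends of 18S. Targets after the sense 17 nt segment gather near base 1450 and those after the antisense 13 nt segment begin beside the band. Of the placed targets, 4 of the sense and 1 of the antisense segment lie left of the drawn range.

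Outside ribosomal RNA, U3 was the main target, with 3.57% of the miR-149-3p reads. The genes Rnu3b1, Rnu3b2, Rnu3b3 and Rnu3b4 are near-identical copies of U3, and all 30 distinct reads were listed with all 4, so they count as 1 target. U3 had 11 and 14 reads in WT A and B and 5 and 7 in KO A and B. The targets covered the 3′ end of the 215 nt U3 RNA, with a median from base 158 to base 214. The antisense 13 nt segment was the miRNA part of 24 of these 30 distinct reads. Snord83b, a small nucleolar RNA of 94 nt, had 5, 1, 1 and 4 reads, and 8 of its 11 distinct reads carried the sense segment. Gm7628, annotated as an antisense transcript, had 0, 7, 2 and 0 reads, which all covered bases 362 to 384 of its transcript. U3 and Snord83b were thus seen in every library and Gm7628 in 1 library of each genotype.

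Nuclear protein-coding genes made up most of the listed genes and 7.43% of the reads. They were 62 of the 81 target genes of miR-149-3p, 49 of them with 1 read. Of the 62, Myh9 was the single gene listed in more than 1 library. Col1a1, a chain of type I collagen, had 4 reads in WT A and none elsewhere. Itgb5, an integrin subunit, had 4 reads of 1 distinct read in KO A. Myh9, a non-muscle myosin heavy chain, had 2 reads in WT B and 1 in KO B. The mitochondrial mt-Co2, a subunit of cytochrome c oxidase, had 2 reads in WT A and 1 in KO A, all listed with the pseudogene Gm28661 as well, and Gm37376 and Gm24589 had 4 and 3 reads. In WT A, Fn1 and Ctgf, 2 genes of the mesangial and fibrosis list, had 1 read each. The reads of the protein-coding group carried the same segments, with 40 of 67 distinct reads holding the sense 17 nt and 14 the antisense 13 nt segment. Of 15 genes described elsewhere as miR-149 targets, among them Akt1, E2f1 and Il6, 5 were listed with some miRNA, Gpc1 included. They had 20 reads in all, 0 of them with either arm of miR-149. miR-149-3p had 1037 reads in the series against 36738 of the other miRNAs. So 20 reads were too few to show that the arm lacks these genes. The mesangial and fibrosis list had 945 reads, 6 of them with miR-149-3p.

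No target changed detectably between genotypes. Of the pairs of a miRNA and a target gene with at least 10 reads, 632 were tested and 0 passed (percent called 0) by edgeR's quasi-likelihood test, with 16 under an unadjusted p of 0.05. DESeq2 called 0 of them with 11 under 0.05. Leaving out WT B called 7 pairs, none of them of miR-149-3p. The tested pairs of miR-149-3p were 9, with Benjamini-Hochberg adjusted p of 0.978 to 0.985. The largest log2 ratio among them was -1.26 (SE 0.79, adjusted p = 0.978) for Gm42418, whose reads in the small library KO B nearly equalled those in WT A.

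Reads in sense orientation on both sides made up 37.2% and 18.5% of miR-149-3p reads in WT A and B and 31.6% and 43.5% in KO A and B. For other miRNAs the share was 58.02%, 59.6%, 59.5% and 57.99%. These shares are a description with no test, since all 436 distinct reads listed with Rn18s-rs5 count as antisense by the annotated strand and the arm was chosen for such targets. Against other miRNAs with ribosomal RNA targets miR-149-3p was higher by 1.78 percentage points in WT A and 1.71 in KO B, and the difference was -29.2 in WT B and -17.97 in KO A. Libraries thus went both ways. For reads listed with 1 miRNA and 1 gene the mean difference from all other miRNAs was 14.8 percentage points, in the other direction.

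Matches to the seed were few in the targets of miR-149-3p. Their share, the alignment lengths and the energies are also a description with no test, since they are read from the ribosomal RNA targets and leading segments that the arm was chosen with. The site searched was CTCCCT, the reverse complement of bases 2 to 7 of miR-149-3p, in the target segment as read. It was present in 4.19% and 7.83% of distinct reads in WT A and B and 2.098% and 5.77% in KO A and B. Other miRNAs had a match to their own seed in 22.8%, 24.7%, 24.3% and 22.2%. The difference was -18.5 ± 2.63 percentage points (SD, n = 4). Against other miRNAs with ribosomal RNA targets it was -16.6. Reads of other miRNAs held CTCCCT in 2.73% of cases. The 38 distinct reads with the match had Gm26917 (7 reads), Col1a1 (3) and Myh9 (2) as leading targets, and every other gene had 1.

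The miRNA alignments had a median of 17 nt in 3 libraries and of 13 nt in WT B, against 14 nt for other miRNAs in every library. The mean difference was 2 nt with an SD of 2 (n = 4), and WT B went the other way. These medians are the lengths of the leading segments.

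The deposited minimum free energies, whose unit the files do not name, were lower for miR-149-3p. The median was -31.99 and -33.3 in WT A and B and -34.03 and -33.3 in KO A and B, against -23.5 to -24.1 for other miRNAs. The difference was -9.31 ± 0.655 (SD, n = 4), and against other miRNAs with ribosomal RNA targets it was -10.2. Only 4 energies, drawn for Rn18s-rs5, Gm26917 and Gm42418, recurred in 532 of the 775 distinct reads (68.6%). The leading target site of each is shown, as these sites make up most of the values.
Site at -29.16: tgaacgccacttgtccctctaag
Site at -37.81: cgaatgcccccggccgtccctc
Site at -38.23: ggctcgcccccgccgtccccc
Site at -40.72: cgcccgtccccgccccttgcctc

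The energy of -29.16 was given for 213 distinct reads, 190 of them with the sense segment, and in 205 of them this was the site. The site at -37.81 was drawn for 188 distinct reads, 167 of them with the antisense segment. It holds the reverse complement of the 18S stretch of 17 nt. At both of these energies 0 reads held the drawn target sequence itself, while 203 and 175 held its reverse complement. Over all miR-149-3p reads the drawn target was present in 261 distinct reads (33.7%) and only its reverse complement in 412 (53.2%). For other miRNAs these shares were 48.5% and 15.9%. No test of these shares is given, since Rn18s-rs5, annotated on the minus strand, was listed for 436 of the 775 distinct reads. The energies belong in 53.2% of the distinct reads to the strand opposite to the one sequenced. Among reads that held the drawn target the difference in median energy was -11.2.

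**Figure D5:**
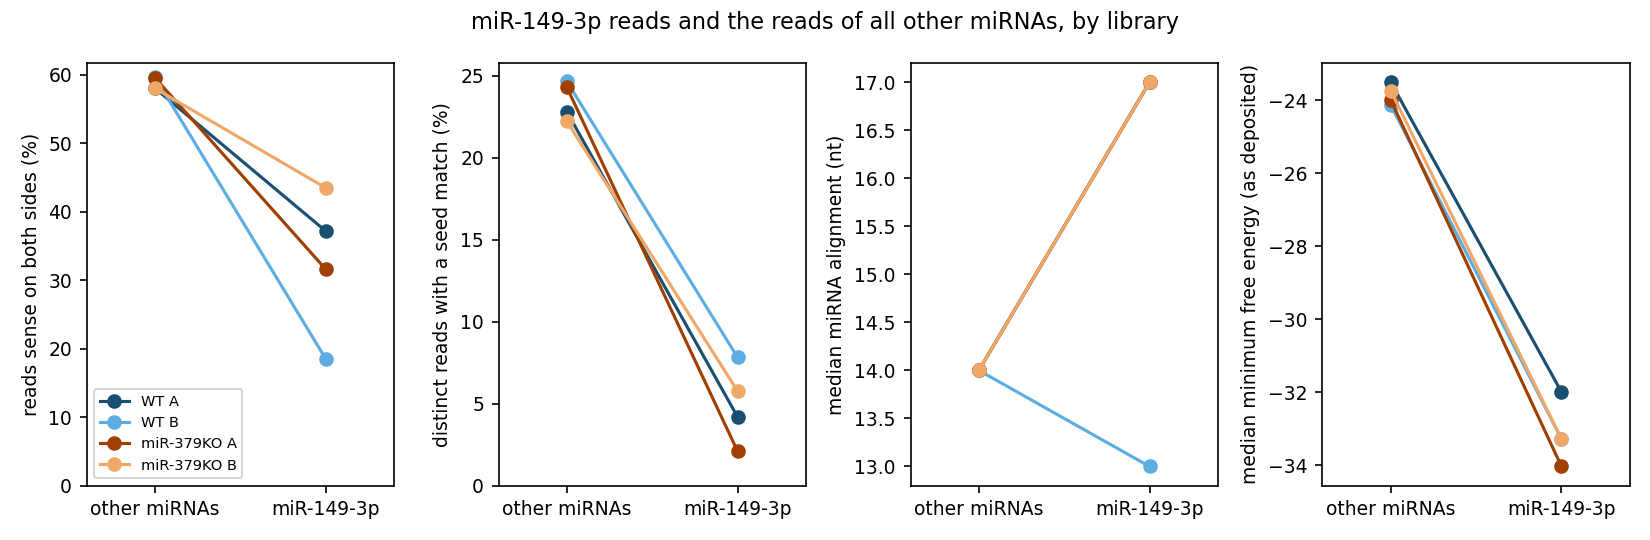
Each line joins the value of all other miRNAs to that of miR-149-3p in 1 library, for the share of reads in sense orientation on both sides, the share of distinct reads with a seed match, the median miRNA alignment in nt and the median minimum free energy as deposited. The first, second and last fall in all 4 libraries, and in the panel of alignment lengths 3 lines coincide and WT B falls.

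The miRNAs most like miR-149-3p in their targets were also listed with 18S. This follows largely from the measure, since Rn18s-rs5 and AY036118 lead the counts of miR-149-3p and both enter it with mostly the same reads. It is given as a description. Among 57 other miRNAs with at least 100 reads, the cosine of the read counts over target genes was highest for miR-494-3p (0.985), miR-1892 (0.969) and miR-6914-5p (0.95039), where the median was 0.312. They had 159, 125 and 141 reads, of which 62.3%, 75.2% and 38.3% were listed with Rn18s-rs5. None of these values moved when shared reads were left out. Only miR-7072-5p was listed on a read of miR-149-3p, with 1 read.

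The 12 reads of miR-149-5p held 6 segments, and each can be described. The read with the longest match was a single read of WT A, with Itgb1, the integrin beta 1 subunit, as its target. Its first 21 bases were those of miR-149-5p without a difference, and they match the genome only at Mir149 itself (chr1:92850381-92850401). The remaining bases, 22 to 74, were bases 1813 to 1865 of the Itgb1 transcript, in the coding part of exon 12 (chr8:128722421-128722473). It is shown with the site drawn for it, where capitals mark the seed in the first and, in the second, the stretch from the first to the last paired base, which holds 1 unpaired base.
miR-149-5p part of the Itgb1 read: tCTGGCTCcgtgtcttcactc
Itgb1 site drawn for it: aacAGTGAAGACATGGACGCTtac
The drawn pairing ran from base 4 to base 20 of the miRNA with 15 Watson-Crick and 2 wobble pairs, at a minimum free energy of -27.5. No other chimeric read of the series held 14 nt or more of miR-149-5p in sense orientation.

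The other reads of miR-149-5p matched the genome beyond their miRNA segment. Of these, 6 reads of 4 different sequences (3 in WT A, 2 in WT B and 1 in KO A) were listed with RP23-257O9.1 (Gm47078), a lincRNA on chromosome 10. Their segment tgaagacacgcagcc was aligned in antisense to bases 18 to 4 with the difference C8G. One sequence, of 57 nt, was found in both WT libraries. In 3 of the 4 sequences the whole read, of 50 to 69 nt, matched chr2:113530271-113530339 without a break, in an intron of Fmn1 and away from the gene of the listed target. The other one matched there over 108 nt. For the 2 reads listed with Malat1 in WT A the match was 92 nt long (chr4:57599508-57599599). For the read listed with Akap12 in KO A the segment also occurs in the Akap12 transcript. The read listed with Sept11 in WT A matched 12 nt of the miRNA without a difference within a 32 nt match on chromosome 2. The last, in KO B, was listed with Rn18s-rs5 and matched 37 nt of Stt3a.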

How the data were processed

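Chimeric reads of 4 AGO2-CLASH libraries were analysed. Per the labels and the methods, the authors joined read pairs (pear), set aside those with a Bowtie2 2.1.0 alignment to GRCm38.p5 or GENCODE transcripts, and kept the rest where blastn matched separate parts to a miRBase miRNA and to a transcript. The deposited count is the number of merged reads of one sequence, not normalized. The score deposited for each pair was not used in a result. Other values deposited by the authors are the aligned positions, where descending positions were taken as antisense, and the minimum free energy. The members, gene lists and tests were chosen with earlier results of these data known.

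Each read was counted 1 time per library, miRNA and gene. Ribosomal RNA genes were those annotated rRNA in GENCODE vM21 plus Rn18s, Rn18s-rs5, Rn45s, Rn28s1, Rn5s, Gm26917, Gm42418, AY036118, CT010467.1 and Gm15564. Counts with at least 10 reads over the 4 libraries were tested with edgeR 4.0.16 (quasi-likelihood, TMM, genotype only, Benjamini-Hochberg adjustment) in R 4.3.3 and, as an alternative, DESeq2 1.42.0. Shares were compared between genotypes by exact permutation tests over libraries, two-sided, with scipy 1.17.1 for intervals, and features of miR-149-3p reads were set against those of other miRNAs without a test. Segments were searched in GRCm38.p6 on both strands without mismatch and extended as far as the read matched. Other miRNAs' seeds were known for 24839 of 29376 pairs of a distinct read and a listed miRNA. The named targets were the 10 with most miR-149-3p reads, the 10 outside ribosomal RNA, all of miR-149-5p, up to 5 miRNAs on the same reads and the 3 most alike. The search was tried on planted segments and the count test on simulated counts with large planted changes and a fixed spread. These trials do not show what change the 4 libraries could detect. Python 3.11.15, pandas 2.3.3 and matplotlib 3.10.9 were used.

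Alternatives were library totals without TMM, no minimum count, a replicate block by letter, leaving out each library, each sequence counted 1 time, alignments of at least 16 nt, reads listed with 1 miRNA and 1 gene, pairs in sense orientation on both sides, a seed of bases 2 to 8, targets extended by 25 nt, and ribosomal RNA targets on both sides. The energy comparison over reads that hold the drawn target was added after seeing the data.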

Additional observations from a re-analysis of the deposited data

How the results depend on the processing

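The letters A and B are shared by the genotypes, but nothing says that they pair the libraries, and deviations of same-lettered libraries correlated at -0.06 over 628 miRNAs. With the letter as a replicate block the log2 ratio of WT over miR-379KO was -0.17 for miR-149-3p and 0.46 for miR-149-5p, and 0 miRNAs and 0 pairs were called. The ratio of miR-149-3p turned to 0.033 without the minimum read count and ranged from -0.58 to 0.34 when each library was left out, being positive without WT A or without KO A, and it was -0.66 in sense orientation on both sides. It passed the threshold under none of the alternatives run, whose adjusted p was 0.650 to 0.9997. Where 1 library was left out, the lone library of that genotype was assumed to vary like the other genotype's 2 libraries. The ratio of miR-149-5p was 0.11 to 1.11 when each library that could be left out was, and 0.025 with each sequence counted 1 time. The 3p share of the miR-149 reads differed by -1.06 to -0.029 percentage points on leaving out each library and by -2.01 for reads listed with 1 miRNA and 1 gene. Leaving out WT A called 1 miRNA and leaving out WT B called 7 pairs, a range of 0 to 1 miRNAs and 0 to 7 pairs, and sense orientation on both sides called 1 pair. None of those pairs was of miR-149-3p.

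The ribosomal RNA share of miR-149-3p differed by 2.66 percentage points with alignments of 16 nt or more and by -4.58 to 1.96 when each library was left out, positive without WT B or KO A, and by -5.76 for reads listed with 1 miRNA and 1 gene. The share in sense orientation on both sides turned to 14.8 points above other miRNAs for reads with a single miRNA and gene, a setting that drops reads listed with both Rn18s-rs5 and AY036118. The seed match and energy differences kept their sign under every alternative run, at -27.8 to -13.1 points and -13.1 to -5.56. The 12 reads of miR-149-5p limit its values, and it could not be fitted without WT A, with alignments of 16 nt or more or in sense orientation.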
